A study of Mus musculus with 6 samples.

Results

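Binding sites of the RNA-binding protein HNRNPA2B1 that were found on the autosomes both in growing C2C12 myoblasts and in differentiated C2C12 myotubes are described here. Peaks of the 4 immunoprecipitation (IP) libraries on the autosomes were merged by strand where they touched or overlapped, after leaving out the *Malat1* and *Neat1* loci on chromosome 19 and the *H19* locus on chromosome 7, which encode long noncoding RNAs. A merged region was a shared site if it held a peak from at least 1 myoblast list and at least 1 myotube list. This gave 84 shared sites among 866 autosomal regions outside the 3 loci (9.70%), and among 1015 regions on all chromosomes. Another 124 autosomal regions had peaks in myoblasts only and 658 in myotubes only.

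C2C12 is an established mouse myoblast line that fuses into multinucleated myotubes when serum is lowered. No genetic change or selection of cells is named for either state. Myoblasts were grown in DMEM with 20% FBS and penicillin-streptomycin. Per the labels, differentiated cells were kept for 8 to 10 days in DMEM with 5% horse serum, penicillin-streptomycin and ITS, whereas the methods of the study state fewer days. Confluent cells of both states were crosslinked with 150 mJ of UV light. The labels describe isolation of nuclei before immunoprecipitation and the methods describe lysis of whole cells. The same antibody (ab31645) was used in both states. There were 2 IP libraries per state, A and B, and 1 listed input sample per state. The methods instead describe 1 size-matched input for each biological replicate. No sorting of myotubes is described for the differentiated cultures, so a change in the share of fused cells and a change within cells cannot be told apart. Peak lists hold binding sites and not RNA levels, so cell identity could not be checked by expression. None of the 8 myogenic and 4 fibroblast markers looked for was among the named shared transcripts, and *Des* and *Myl1* were among the transcripts with sites in myotubes only.

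HNRNPA2B1 belongs to the hnRNP family of proteins that coat nascent RNA and act in splicing, transport and turnover of transcripts. It binds many RNAs, including its own. In enhanced UV crosslinking and immunoprecipitation (eCLIP), RNA fragments fixed to the protein are sequenced and set against a size-matched input, which holds RNA fragments from all proteins of that size. For each peak the lists give the log2 fold enrichment of IP over input, in which 1 unit is a doubling, and a −log10 p for that enrichment, of at least 5 in the lists. Fold enrichment is already relative to input, but −log10 p also grows with the number of reads at a site. Read counts are not part of the lists, so the depth behind a site is unknown. At each shared site, the value of a library is that of its peak with the highest −log10 p, called the top peak below.

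The shared sites fell on many transcripts and were reproducible across libraries to different extents. Of the 84 sites, 36 had a peak in all 4 lists, 31 in 3 lists and 17 in 1 list of each state. Among the sites in 3 lists, 9 lacked a peak in myotube A, 9 in myotube B, 8 in myoblast B and 5 in myoblast A. No single library thus accounted for the sites missing from a list. The sites with a peak numbered 68 in myoblast A, 70 in myoblast B, 65 in myotube A and 68 in myotube B.

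**Figure D1:**
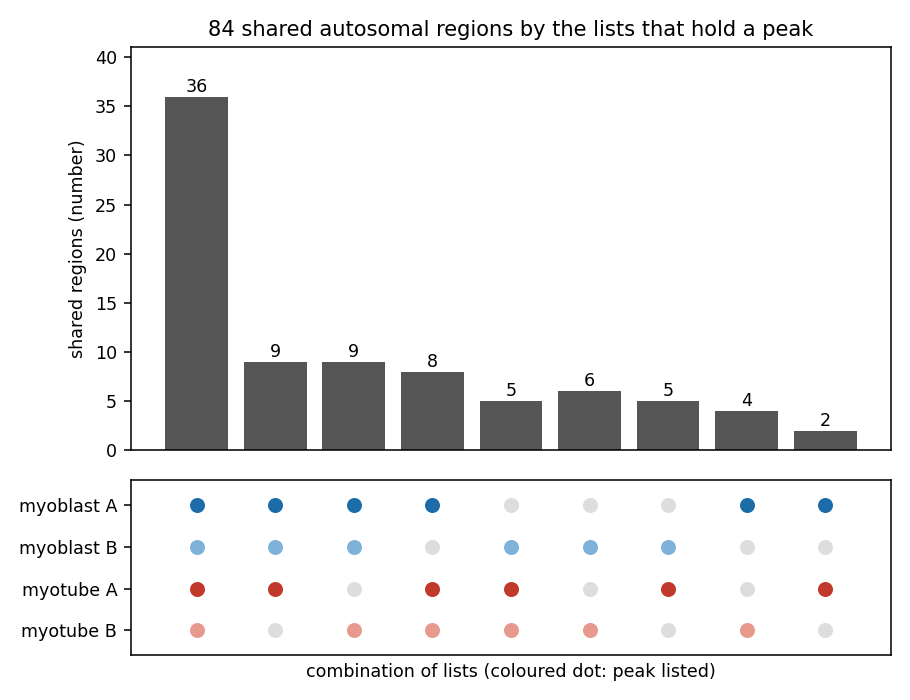
Number of shared autosomal sites (y axis) in each combination of the 4 peak lists, with coloured dots under each bar marking the lists that held a peak. The largest bar, 36 sites, is the combination of all 4 lists, and the other 48 sites are spread over 8 combinations of 2 to 9 sites each.

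The shared sites made up a larger share of the shorter myoblast set than of the myotube set. They were 84 of 208 myoblast regions (40.4%, 95% Wilson interval 33.9 to 47.2, counting error only) and 84 of 742 myotube regions (11.3%, 9.24 to 13.8). Among regions found in both myoblast replicates, 54 of 119 were shared (45.4%, 36.7 to 54.3). Among regions found in both myotube replicates, 49 of 218 were shared (22.5%, 17.4 to 28.5). Of regions found in a single replicate, 33.7% of 89 in myoblasts and 6.68% of 524 in myotubes were shared. The rule that chose the sites fixes these shares, so they are given without a test. The whole lists also differed in length, with 594 and 591 peaks in myoblasts and 1499 and 1211 in myotubes, and the part that list length plays in the shares was not tested.

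The sites were spread over 16 of the 19 autosomes, with 42 on each strand. Chromosome 15 held the most, with 11, followed by chromosome 7 with 10 and chromosome 6 with 9, and chromosomes 8, 13 and 14 held none. When sites on a strand within 10 kb of each other were joined, 71 groups remained, of which 63 held a single site. Sites were 20 to 516 nt wide, with a median of 134.5 nt and quartiles of 98.25 and 177.5 nt. Positions below are on the mm9 build used by the deposited lists. A transcript name could be given to 71 sites, which lay on 51 transcripts, and the other 13 sites are named by position. Names came from spans of transcripts that the study listed as having peaks, so a site without a name may still lie in a gene. Exons, introns and untranslated regions could not be assigned without an annotation of that build.

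Several transcripts carried more than 1 shared site. The 6 transcripts with 3 or more sites, *Ext1*, *Rras2*, *Zyx*, *Hnrnph1*, *Eif4a2* and *Gpi1*, held 23 of the 84 sites, 8 of them with a peak in all 4 lists. Sites on 1 transcript share its RNA and are not independent. The sites of *Ext1* and *Rras2* were spread over 54781 nt of the genome or more, and those of the other 4 transcripts over 2028 nt or less.

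*Ext1*, which encodes a glycosyltransferase of heparan sulfate synthesis, held the most, with 6 sites over 128780 nt of the minus strand of chromosome 15 (from 53019553 to 53148332). The gene also held 26 regions found in myotubes only, 2 of them in both replicates, and 8 found in myoblasts only, 4 of them in both. Sites are numbered from the 5′ end of the RNA. Site 3 had log2 fold enrichments of 2.01 in myoblast A, 2.01 in myoblast B, 1.53 in myotube A and 2.06 in myotube B. Site 6, the 3′-most, had 2.60, 2.75, 2.43 and 2.57 in the same order. The states overlapped at site 3, and at site 6 both myotube libraries were slightly below both myoblast libraries. Sites 1, 2 and 5 each lacked a peak in 1 list, and site 4 lacked one in a list of each state. Site 1 had 2.21 and 2.59 in myoblasts and 1.77 in myotube B, and site 2 had 1.55 and 1.64 in myoblasts and 1.26 in myotube B. Site 4 had 2.76 in myoblast B and 2.13 in myotube B. Site 5 stood the other way round, with 1.52 in myoblast A against 1.69 and 2.45 in myotubes. The enrichment along *Ext1* thus stayed between 1.26 and 2.76 in every library with a peak, with no site far above the others.

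*Rras2*, which encodes a small GTPase of the Ras family, had 4 sites over 54781 nt of the minus strand of chromosome 7 (from 121204266 to 121259046). The 3′-most pair lay 884 nt apart and was the most enriched. Site 3 (from 121205274 to 121205404) had 4.69, 4.68, 4.25 and 4.59 in myoblast A, myoblast B, myotube A and myotube B, and −log10 p of 47.5, 46.9, 66.3 and 84.5. Site 4 (from 121204266 to 121204389) had 4.13 and 4.30 in myoblasts and 4.83 and 4.62 in myotubes. The neighbouring sites therefore differed in direction, site 3 with both myotube libraries just below the myoblast libraries and site 4 with both above. The 5′ sites were weaker. Site 1 had 3.20 and 2.51 in myoblasts and 2.01 in myotube B, and site 2 had 3.25 in myoblast A and 2.88 in myotube A. *Rras2* also held 3 regions found in myotubes only, none of them in both replicates, and no region found in myoblasts only.

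*Zyx* encodes zyxin, a LIM-domain protein of focal adhesions and actin stress fibres. Its 4 sites lay within 2028 nt of the plus strand of chromosome 6, starting at 42303668. Site 1 had a peak in all 4 lists, with log2 fold enrichments of 2.87 and 2.82 in myoblasts and 2.30 and 2.36 in myotubes, so that both myotube values were lower. Site 2 had 3.63 and 2.76 in myoblasts and 2.92 in myotube B, which lay between them. Site 3 had 4.42 and 4.19 in myoblasts and 3.76 in myotube B. Site 4 had 3.51 and 3.74 in myoblasts and 2.07 in myotube A. Each of the 4 *Zyx* sites thus had a peak in both myoblast libraries and a lower mean in myotubes.

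*Hnrnph1*, which encodes another hnRNP that acts in splicing, had 3 sites within 990 nt of the plus strand of chromosome 11, starting at 50193492. Site 1 had 2.13 and 2.26 in myoblasts and 1.87 and 1.84 in myotubes. Site 2 had 1.34 in myoblast B and 1.43 and 1.69 in myotubes, and site 3 had 3.41 in myoblast B and 3.65 in myotube A. Only site 1 was lower in myotubes, and it was the only one of them with a peak in myoblast A.

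*Eif4a2*, which encodes an RNA helicase of translation initiation, had 3 sites within 1667 nt of the plus strand of chromosome 16, starting at 23112053. Site 3 had 4.44 and 4.56 in myoblasts and 3.49 and 2.88 in myotubes. Site 2 had 1.58 and 1.66 in myoblasts and 1.40 and 1.14 in myotubes, and site 1 had 2.82 in myoblast B against 1.78 and 1.43 in myotubes. All 3 sites were lower in every myotube library than in every myoblast library with a peak. The −log10 p of site 3 ran the other way, at 7.21 and 7.93 in myoblasts and 26.3 and 18 in myotubes.

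*Gpi1*, which encodes the glycolytic enzyme glucose-6-phosphate isomerase, had 3 sites within 1476 nt of the minus strand of chromosome 7, none with a peak in all 4 lists. Site 1 had 2.41 in myoblast A and 2.22 and 2.43 in myotubes, and site 2 had 2.39 in myoblast B and 2.01 and 2.48 in myotubes. The states overlapped at both. Site 3 had 4.01 in myoblast A and 2.22 in myotube B, with a −log10 p of 5.09 and 5.87.

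**Figure D2:**
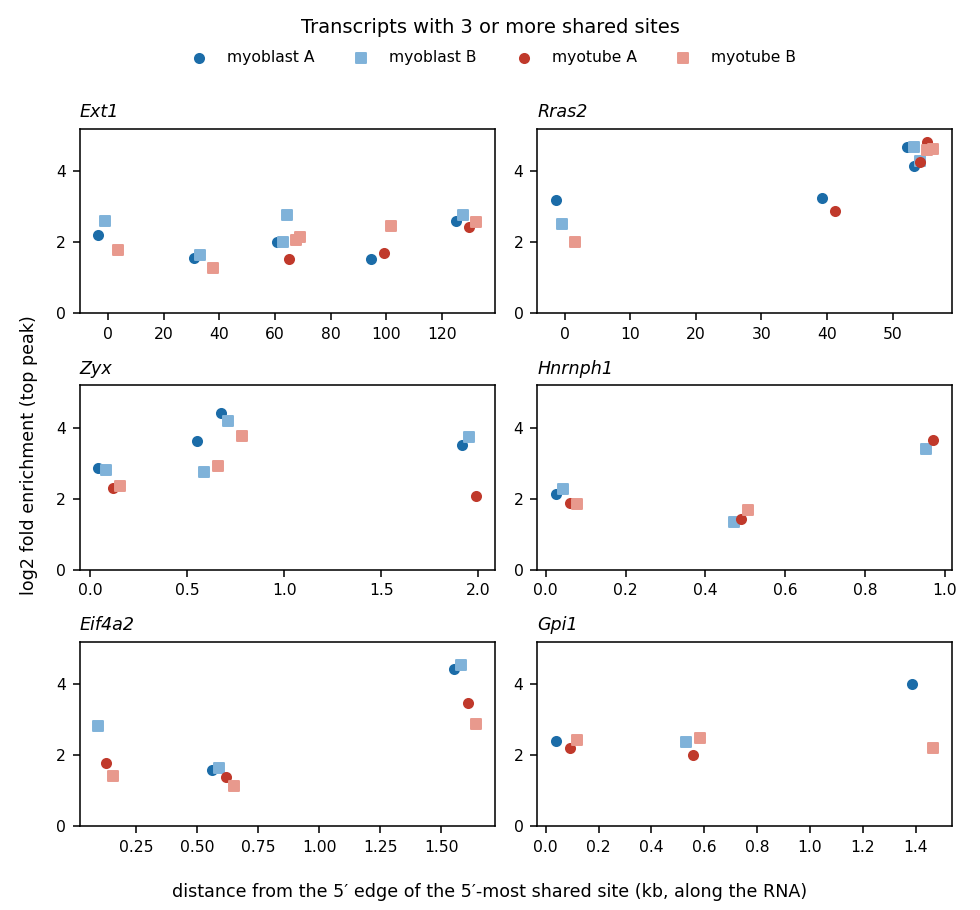
Log2 fold enrichment of IP over input (y axis) at each shared site of the 6 transcripts with 3 or more sites, against the distance along the RNA from the 5′ edge of the first site in kb (x axis, a different scale in each panel). Each point is the top peak of 1 library, with the 4 libraries of a site set slightly apart for legibility, and the *Eif4a2* and *Zyx* sites show most of the myotube points (red) under the myoblast points (blue).

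The sites with a peak in all 4 lists allow both states to be compared with their replicates. Over these 36 sites the median log2 fold enrichment was 2.74 and 2.75 in the myoblast libraries and 2.14 in each of the myotube libraries. The mean of the myotube libraries was lower than that of the myoblast libraries at 25 sites and higher at 11, and the median difference, myotube minus myoblast, was −0.32 (quartiles −0.85 and 0.22, n = 36). The direction turned when only peaks with a −log10 p of at least 8 were kept, to a median of 0.22 over 10 sites, and a width-weighted mean over the peaks of a site gave −0.16. Over all 77 regions of the genome in all 4 lists, the 3 left-out loci included, the median was −0.25. Autosomal regions found in myoblasts only had median log2 fold enrichments of 2.97 and 2.93 in the myoblast lists. Those found in myotubes only had 2.44 and 2.40, so lower values in the myotube lists were not particular to the shared sites. Both myotube libraries were below both myoblast libraries at 20 of the 36 sites (55.6%), beside 50.6% of the 77 regions, and above both at 9 (25%), beside 32.5%. The libraries of the states overlapped at the other 7. The 77 regions include the 36 sites, and of the other 41 regions 46.3% were lower and 39% higher. With 2 libraries against 2, no exact permutation test can give a p below 0.333, and the sites were chosen on these same peaks, so the counts are given without a test. The replicates are separate samples per the labels.

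The −log10 p ran the other way at many of these sites. At the same 36 sites the median −log10 p was 7.93 and 7.84 in myoblasts and 11.6 and 9.93 in myotubes. It was higher in both myotube libraries than in both myoblast libraries at 15 sites, beside 42.9% of the 77 regions, and lower at 5, beside 10.4%. Of the 41 regions among the 77 that are not among these sites, 43.9% were higher and 7.32% lower. At 8 sites the log2 fold enrichment was lower and the −log10 p higher in myotubes, in both cases without overlap. At 3 sites, *Lrrc47*, *Npm1* and *Clic1*, both measures were lower without overlap, and at 5 sites both were higher. The shares of these joint patterns over the 77 regions were not computed, so the counts are not read as particular to the shared sites. Each state was scored against its own input, so a change in the IP and a change in the input cannot be told apart, nor can fewer bound molecules per cell and fewer cells that hold the RNA.

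**Figure D3:**
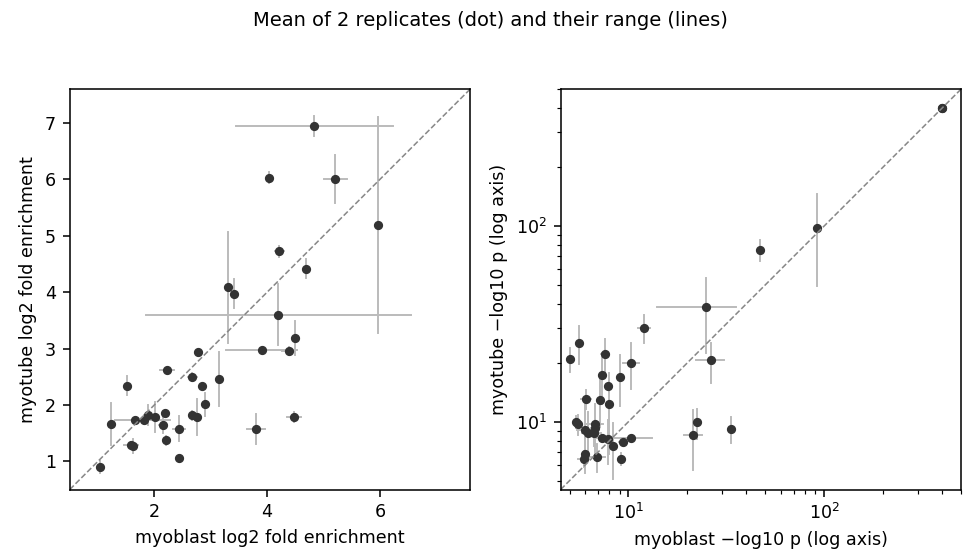
Mean log2 fold enrichment (left) and mean −log10 p on log axes (right) in myoblasts (x axis) and myotubes (y axis) at the 36 sites with a peak in all 4 lists; each dot is a site, lines span its 2 replicates and the dashed line marks equal values. On the left 25 dots lie below the dashed line, whereas on the right 25 lie above it.

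The spread between replicates was smaller in myoblasts than in myotubes. The absolute difference between replicates had a median of 0.09 log2 units in myoblasts (range 0.0015 to 4.70) and 0.28 in myotubes (range 0.027 to 3.84), and the median between states was 0.62. It was at most 0.1 at 19 of the 36 sites in myoblasts and at 7 in myotubes. Of the 20 sites that were lower in both myotube libraries, 13 differed by more than 2 times the larger of the SDs of the states, and 5 by more than 1 log2 unit. Of the 9 that were higher, 5 and 2 did so. Differences of under 0.3 in either direction were seen at 8 of the 36 sites. The labels list 1 input per state. If both IP libraries of a state were scored against it, gaps between replicates and the SDs hold no variation between inputs. Gaps between states do hold it. The part this plays was not tested. The top peaks also lay at nearby positions. Their centres were a median of 6.25 nt apart between the myoblast replicates, 10.75 nt between the myotube replicates and 16.75 nt between states.

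The largest lower values in myotubes were at 5 sites, with a difference of more than 1 log2 unit each. At *Luc7l2*, which encodes a splicing factor associated with the U1 snRNP, the site at chromosome 6 (plus strand, 38508137 to 38508242) had 4.61 and 4.35 in myoblasts and 1.88 and 1.70 in myotubes. The difference was −2.69, against replicate differences of under 0.3. Its −log10 p was slightly higher in myotubes, at 8.06 and 6.67 in myoblasts and 8.35 and 8.21 in myotubes. *Luc7l2* also held 11 regions found in myotubes only, 6 of them in both replicates.

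At *Lrrc47*, which encodes a leucine-rich repeat protein, the site at chromosome 4 (plus strand, 153394022 to 153394537) was the widest of all, at 516 nt. It had 3.65 and 3.96 in myoblasts and 1.85 and 1.31 in myotubes, a difference of −2.23. Its −log10 p was also lower, at 23.7 and 19.2 in myoblasts and 11.4 and 5.67 in myotubes. Such a wide region can hold separate peaks. The region held 6 peaks in myoblast A, 8 in myoblast B, 6 in myotube A and 1 in myotube B.

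*Lmbrd1* encodes a lysosomal membrane protein needed for the export of vitamin B12. Its site at chromosome 1 (plus strand, 24740961 to 24741079) had 4.49 and 4.27 in myoblasts and 3.03 and 2.88 in myotubes, a difference of −1.42. *Atad1* encodes an AAA ATPase that removes misplaced proteins from the mitochondrial outer membrane. Its site at chromosome 19 (minus strand, 32748304 to 32748525) had 2.41 and 2.48 in myoblasts and 1.10 and 1.01 in myotubes, a difference of −1.39. At both sites the gap between states was wider than either gap between replicates. *Eif4a2* site 3, given above, completed the 5 with a difference of −1.31.

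Further sites of high rank were lower in both myotube libraries. *Clic1*, which encodes a chloride intracellular channel protein, had 2.67 and 2.68 in myoblasts and 1.90 and 1.74 in myotubes, with −log10 p of 33.4 and 33.8 against 10.6 and 7.80. *Npm1*, which encodes the nucleolar chaperone nucleophosmin, had 2.24 and 2.18 in myoblasts and 1.45 and 1.3 in myotubes, with −log10 p of 23.2 and 21.6 against 11.7 and 8.16. These sites had the same pattern in both measures. *Itga7*, which encodes the laminin-binding integrin alpha 7 subunit of muscle, had 2.87 and 2.93 in myoblasts and 1.81 and 2.21 in myotubes. *Ddr2*, which encodes a collagen receptor tyrosine kinase, had 3.27 and 4.53 in myoblasts and 2.95 and 3.0 in myotubes. Unlike *Clic1* and *Npm1*, *Itga7* and *Ddr2* had higher −log10 p in myotubes, at 12.4 and 22.4 against 7.10 and 7.59 for *Itga7* and at 15.3 and 15.1 against 7.99 and 7.75 for *Ddr2*. *Rsrp1*, which encodes an arginine- and serine-rich protein, had 1.93 and 1.85 in myoblasts and 1.64 and 2.00 in myotubes, so that the states overlapped. *Laptm4a*, which encodes a lysosomal membrane protein, had the lowest enrichment of the 36 in every library, at 1.04 and 1.03 in myoblasts and 1.00 and 0.79 in myotubes. Its −log10 p was nevertheless 30.8 and 19.7 in myotubes, against 5.53 and 5.65 in myoblasts.

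Fewer sites were higher in both myotube libraries. At *Pappa*, which encodes a secreted metalloproteinase that cleaves IGF-binding proteins, the site at chromosome 4 (plus strand, 64785552 to 64785585) had 4.03 and 4.04 in myoblasts and 6.12 and 5.94 in myotubes, a difference of 1.99. Its −log10 p was 5.06 and 5.05 in myoblasts, close to the lowest value listed, and 23.8 and 17.9 in myotubes. Replicates of both states lay within 0.2 of each other. At *Phip*, which encodes a bromodomain protein, the site at chromosome 9 (minus strand, 82868402 to 82868432) had 5.41 and 5.00 in myoblasts and 5.57 and 6.43 in myotubes, a difference of 0.79. The −log10 p did not separate the states there. The *Pappa* and *Phip* sites were only 34 and 31 nt wide. Of the 30 sites wider than 70 nt in all 4 lists, 6 were higher in both myotube libraries and 19 lower. At *Dyrk1a*, which encodes a dual-specificity kinase, the site at chromosome 16 (plus strand, 94851881 to 94852057) had 3.38 and 3.45 in myoblasts and 4.24 and 3.71 in myotubes, a difference of 0.56. Here the −log10 p was higher as well, at 21.9 and 12.0 against 8.84 and 9.35.

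The other named sites in all 4 lists differed by less than 1 log2 unit. *Kpna4*, which encodes an importin alpha that carries proteins into the nucleus, had 2.75 and 2.76 in myoblasts and 2.11 and 1.46 in myotubes. *Kank2*, which encodes a protein linking adhesions to the cytoskeleton, had 2.33 and 2.54 in myoblasts and 1.81 and 1.35 in myotubes. *Ssr3*, which encodes a subunit of the translocon-associated protein complex, had 3.15 and 3.16 in myoblasts and 2.95 and 1.98 in myotubes. In these sites the myotube replicates lay farther apart than the myoblast replicates, and both were lower. *Taf15*, which encodes an RNA-binding protein of the FET family, had 1.70 and 1.47 in myoblasts and 1.22 and 1.34 in myotubes. On the other side, *Oaz1*, which encodes the antizyme that inhibits ornithine decarboxylase, had 2.35 and 2.11 in myoblasts and 2.65 and 2.57 in myotubes. A listed span named *Oaz1-ps* also covered this site, and that name was not kept. *Cyb5r3*, which encodes a cytochrome b5 reductase, had 1.23 in both myoblast libraries and 1.29 and 2.04 in myotubes. For *Cyb5r3* the difference thus came mostly from myotube B. *Mtss1*, which encodes a membrane-bending protein that acts on actin, had 2.74 and 2.82 in myoblasts and 2.93 and 2.96 in myotubes, the smallest of the 9 higher differences at 0.17. The states overlapped at *Nes*, which encodes the intermediate filament protein nestin, with 1.35 and 2.27 in myoblasts and 1.66 and 1.82 in myotubes. They also overlapped at *Ablim1*, which encodes an actin-binding LIM protein, with 3.35 and 3.28 in myoblasts and 5.07 and 3.10 in myotubes.

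The 48 sites missing from 1 or 2 lists were also more often lower than higher in myotubes. The mean over the libraries with a peak was lower in myotubes at 34 and higher at 14, with a median difference of −0.29. Over all 140 regions shared by the states on any chromosome, the 84 sites and the 3 loci included, 87 were lower (62.1%), with a median of −0.26. Among the 48, each of these sites rests on a single library in at least 1 state. *Med13l*, which encodes a subunit of the Mediator complex, had 4.06 and 4.10 in myoblasts and 2.95 in myotube A. *Emp1*, which encodes an epithelial membrane protein, had 2.06 and 2.25 in myoblasts and 1.40 in myotube A, with a −log10 p of 16.0 and 15.8 against 6.81. Both had closely matched myoblast replicates and no peak in myotube B. *Rtn4*, which encodes the endoplasmic reticulum protein Nogo, had 2.81 in myoblast B and 2.01 in myotube B. This gene held another 11 regions found in myotubes only, 5 of them in both replicates. *Zeb1*, which encodes a zinc-finger transcription factor, had 2.51 in myoblast B and 2.45 and 2.57 in myotubes. *Tns1*, which encodes the adhesion protein tensin 1, had 2.88 in myoblast A and 3.71 in myotube B. The first was lower, the second overlapped and the third was higher in myotubes, each on the strength of 2 or 3 libraries.

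The 2 sites listed at the highest −log10 p in every library had no transcript name. A site at chromosome 7 (plus strand, 137977951 to 137977996) had a −log10 p of 400, the highest value in the lists, in all 4 libraries. Its log2 fold enrichment was 3.44 in myoblast A, 6.23 in myoblast B, 7.12 in myotube A and 6.76 in myotube B. Myoblast A stood apart from the other libraries, and without it the gap between myoblast B and the myotube libraries was smaller than the gap between the myoblast replicates. A site at chromosome 9 (minus strand, 78023113 to 78023234) also had 400 in all libraries, with 1.54 and 1.49 in myoblasts and 2.17 and 2.52 in myotubes. A difference of 0.83 there was larger than either replicate gap.

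At another unnamed site, at chromosome 6 (minus strand, 124691242 to 124691304), the replicates of 1 state fell on both sides of the other state, with 5.91 and 6.01 in myoblasts and 7.11 and 3.27 in myotubes. The same held for the site at chromosome 18 (plus strand, 41356147 to 41356184), with 6.55 and 1.85 in myoblasts and 4.14 and 3.06 in myotubes. These sites had the widest gaps between replicates of a state, 4.70 in myoblasts and 3.84 in myotubes. All 3 sites with a replicate gap of over 2 log2 units were unnamed and no wider than 70 nt. Over the 6 sites of this width in all 4 lists, the median log2 fold enrichment was 4.72, 4.52, 5.85 and 4.61 in myoblast A, myoblast B, myotube A and myotube B. Over the 30 wider sites it was 2.50, 2.61, 1.87 and 2.02.

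**Figure D4:**
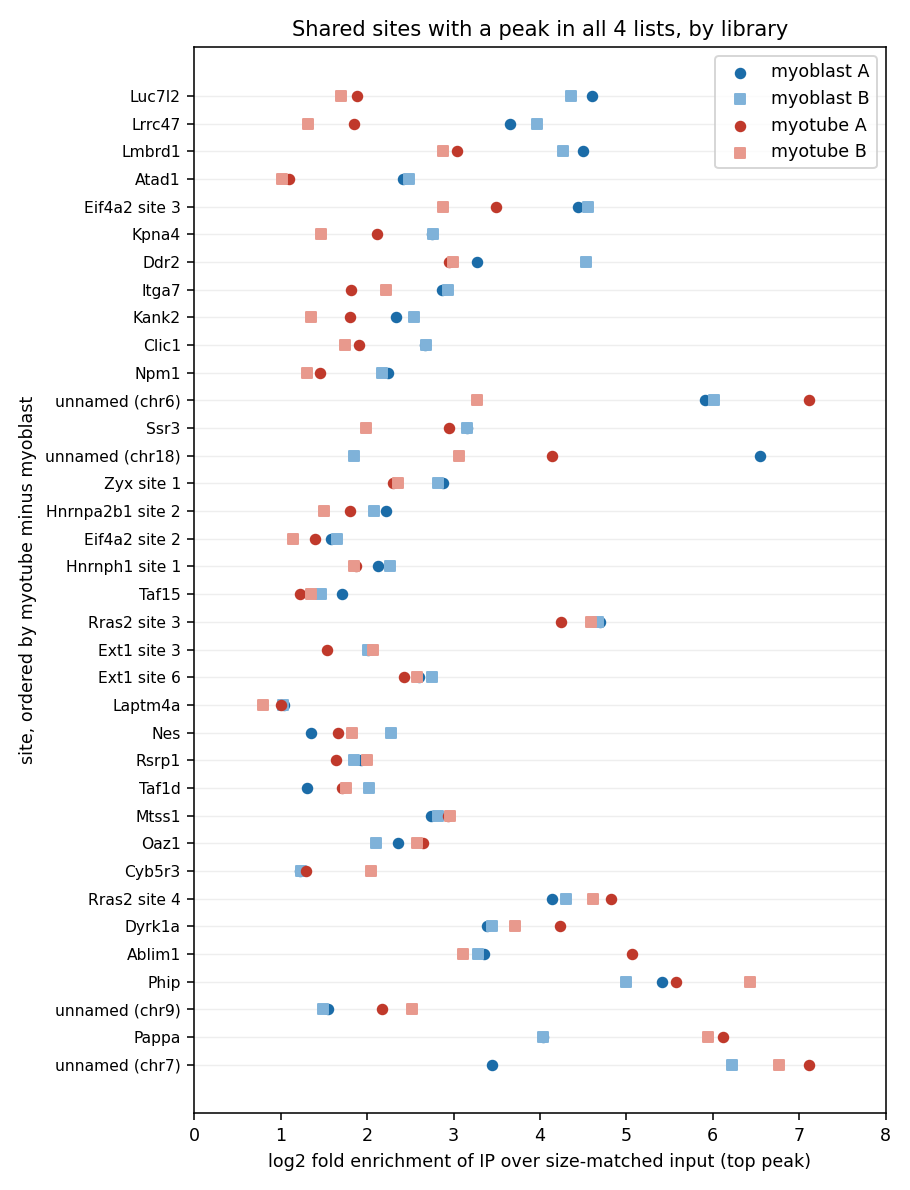
Log2 fold enrichment of IP over size-matched input (x axis) at the 36 shared sites with a peak in all 4 lists (y axis), ordered from the most negative to the most positive difference between myotubes and myoblasts. Each point is the top peak of 1 library; both myotube points (red) lie left of both myoblast points (blue) at 20 sites, right of both at 9 and among them at 7.

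HNRNPA2B1 had shared sites on transcripts of splicing proteins, including its own. Of a list of 54 hnRNP and splicing genes, 7 held 11 shared sites, 3 of them in all 4 lists. The mean was lower in myotubes at 7 of the 11, with a median difference of −0.34. Over all 84 shared sites it was lower at 59, with a median of −0.30, so the group stood close to the shared sites as a whole. *Hnrnpa2b1* itself held 2 sites on the minus strand of chromosome 6. Site 2 (from 51412901 to 51413003) had 2.22 and 2.08 in myoblasts and 1.80 and 1.5 in myotubes. Site 1 (from 51414482 to 51414546), on the 5′ side, had 1.78 and 1.87 in myoblasts and 2.15 in myotube B. The mean was thus lower in myotubes at site 2 and higher at site 1, with a difference of 0.32 log2 units at the latter. The gene held another 8 regions found in myotubes only, 2 of them in both replicates, and 1 found in myoblasts only, in both replicates.

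*Sfpq*, which encodes a splicing and paraspeckle protein, also held 2 sites. Site 1 had 2.83 and 2.63 in myoblasts and 2.15 in myotube A, and site 2 had 1.73 in myoblast B and 1.56 in myotube A. Neither had a peak in myotube B. *Srsf6*, an SR-protein gene, had 2.94 in myoblast B and 1.78 and 2.05 in myotubes. *Srrm2*, which encodes a protein of nuclear speckles, had 2.87 and 2.99 in myoblasts and 1.81 in myotube B. Both were lower in every myotube library with a peak. *Hnrnpa3*, a paralog of *Hnrnpa2b1*, had 2.59 in myoblast B and 2.91 in myotube B, and is known to have processed copies in the genome, which makes its reads uncertain.

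The other lists had few shared transcripts. Of all 84 shared sites, 59 had a lower mean in myotubes, which is the share to set beside the counts that follow. Of 41 genes of cytoskeleton and adhesion, *Zyx* and *Actn4* held 5 shared sites, with a lower mean in myotubes at all 5 and a median difference of −0.52, but 4 of the 5 lay on *Zyx* alone. *Actn4*, which encodes a nonmuscle actin-crosslinking protein, had 3.73 and 3.89 in myoblasts and 3.63 in myotube A. The list did not hold *Kank2*, *Itga7*, *Nes*, *Tns1*, *Ablim1* or *Mtss1*, described above, which also encode adhesion or cytoskeleton proteins. Their difference was −0.85 at *Kank2*, −0.89 at *Itga7* and −0.07 at *Nes*. It was 0.84 at *Tns1*, 0.77 at *Ablim1* and 0.17 at *Mtss1*, so the direction depends on the genes listed. Of 19 translation genes, *Eif4a2* and *Npm1* held 4 sites, lower in myotubes at all 4, with a median of −1.03, and 3 of them lay on *Eif4a2*. Of 36 sarcomere and muscle genes, only *Bin1* held a named shared site.

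*Bin1* encodes a membrane-curving protein of muscle T-tubules, and also counted among 21 membrane-trafficking genes together with *Ehbp1l1*. Its 2 sites lay 28059 nt apart on the plus strand of chromosome 18. Site 1 had 2.81 in myoblast A and 1.67 and 1.79 in myotubes, and site 2 had 2.84 in myoblast A and 1.68 and 1.74 in myotubes. Neither had a peak in myoblast B, and the gene held another 12 regions found in myotubes only, 5 of them in both replicates. *Ehbp1l1* had 1.70 in myoblast A and 1.75 and 2.26 in myotubes. The median over the 3 trafficking sites was −1.08, and it rests on the *Bin1* sites. None of the 26 listed extracellular matrix genes and none of the 22 listed hosts of noncoding RNAs held a named shared site. Genes of either kind outside these lists were not counted. The 13 shared sites without a name could not be counted for any list. These counts describe short lists and call nothing particular to them.

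The transcripts with shared sites were often bound elsewhere as well. Of the 51 named transcripts, 28 also held regions found in myotubes only, 137 in all, and 10 held regions found in myoblasts only, 24 in all. Both kinds were present on 8 transcripts and neither on 21. A shared site was thus in many cases 1 of several regions on its RNA. Most of the regions found in myotubes only were in 1 replicate, and the myotube lists were longer. A difference between states on the rest of these RNAs was not tested. *Sfpq* held 3 regions found in myotubes only, 1 of them in both replicates, and 6 found in myoblasts only, 2 of them in both.

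Many shared sites had a −log10 p under 8, the limit that the methods set for a corrected p. At 31 of the 84 sites the best −log10 p was under 8 in both states, and at 27 it was under 8 in myoblasts alone. It was under 8 in myotubes alone at 4 sites, and at least 8 in both states at 22. The weakest sites that qualified were *Rras2* site 2, with −log10 p of 5.16 in myoblast A and 5.00 in myotube A, *Slc38a2*, which encodes an amino acid transporter and had 6.14 and 5.31 in myoblasts and 5.00 in myotube A, and an unnamed site on chromosome 15 from 102263144 to 102263226, with 5.00 in myoblast B and 5.36 in myotube A. On the other side of the rule, 6 pairs of neighbouring regions of opposite states lay within 100 nt without touching. The closest were a pair on *Ano6* only 5 nt apart, with 2.97 in myoblast A and 3.57 in myotube B, an unnamed pair on chromosome 16 at 36 nt and a pair on *Purb* at 57 nt. None of these regions counted as shared.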

How the data were processed

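HNRNPA2B1 eCLIP peak lists of 2 C2C12 and 2 differentiated C2C12 IP libraries were analysed, and the 2 input samples entered only through the deposited values. Per the study's methods, reads from repetitive elements were removed, the rest were aligned to mm9 with STAR, duplicates were removed by barcode and peaks were called per replicate with CLIPper, so sites in repeats are under-represented. The lists have 6 columns and no header. The authors deposited a −log10 p (5 or more, at most 400) and a log2 fold enrichment over size-matched input for each peak. The methods required a −log10 p over 8 after Bonferroni correction. It is not known if the deposited p-values are corrected in this way. The lists give no read totals, so precision per site is unknown, and sites in scarce RNAs reach the listed p only at higher enrichment.

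Peaks were merged by strand with pandas 2.3.3 (numpy 2.4.6, Python 3.11.15), and bedtools 2.31.1 gave the same 866 regions and 84 shared sites. The functions were checked on simulated data. Shares carry 95% Wilson intervals (statsmodels), and figures were drawn with matplotlib 3.10.9. No test between states was made, since the smallest exact p is 0.333.

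On chromosome 7, 74 peaks ended beyond its GRCm38 length, so the reference at hand was another build: no coordinates were converted, and site sequences, exons and introns were not analysed here. Names came from mm9 transcript spans in a supplementary list of the study, used for names only. They were kept where GENCODE M21 has that gene on the same chromosome and strand. At 3 shared sites another listed name was not kept: *Oaz1-ps* at *Oaz1*, *Gm6793* at *Hnrnpa3* and *Filip1l* at *Cmss1*.

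Shared sites and gene lists were chosen with earlier results of these data known. Sites described in full were those on transcripts with at least 3, the 15 of best summed rank in all 4 lists, the 5 largest non-overlapping differences each way, those on listed genes, and the 3 sites or pairs nearest the rule's limits. Other sites were named after their values were seen. Alternatives were −log10 p of at least 8, log2 fold enrichment of at least 3, joining peaks within 100 nt, keeping the 3 loci, other values per site, other linking distances and leaving out each library. One more, leaving out sites of up to 70 nt, was chosen after seeing the data.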

Additional observations from a re-analysis of the deposited data

How the results depend on the processing

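Of 64 recomputed values, 38 stayed within the limits set for them, 25 moved and 1 reversed. With −log10 p of at least 8 there were 22 shared sites, 10 in all 4 lists and 21 groups within 10 kb, and the median difference in log2 fold enrichment between myotubes and myoblasts reversed to 0.22 (n = 10), from −0.32 over 36 sites. With log2 fold enrichment of at least 3 there were 18 shared sites, 9 in all 4 lists, 18.9% of myoblast and 7.73% of myotube regions. With the 3 loci kept, 68 sites were in all 4 lists, shared sites were 49.6% of myoblast and 15.0% of myotube regions, and the median difference was −0.18. That difference was −0.28 with the highest log2 fold enrichment per site, −0.16 with a width-weighted mean and −0.34 without peaks at −log10 p of 400. By rank within a list, 34 sites were lower in both myotube libraries and 0 higher, in lists of unequal length, where a longer list allows lower ranks. Leaving out each library gave 66 to 70 shared sites, 31.4% to 41.7% of myoblast and 9.03% to 14.6% of myotube regions, a median difference of −0.30 to −0.23, and 24 to 29 sites lower and 11 to 14 higher in myotubes without overlap. The 14 were of 44 sites, without C2C12 replicate B, against 9 of 36 with all libraries, and 1 library in a state makes non-overlap easier to reach. Without sites of up to 70 nt, chosen after seeing the data, the median difference was −0.32, with 19 sites lower and 6 higher. The cause was not tested for any of these.

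No paired analysis was possible because the letters A and B do not tie a myoblast culture to a myotube culture in the labels, and no model was fitted. With 2 libraries per state, 1 line and no read counts, differences at single sites have no test, and neither depth nor RNA level can be set beside them.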

Other observations

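The same log2 fold enrichment occurred at another peak of the same list for 14 of 68 shared sites in myoblast A, 17 of 70 in myoblast B, 20 of 65 in myotube A and 24 of 68 in myotube B. *Cmss1*, at chromosome 16 (minus strand, 57391592 to 57391728), had the lowest log2 fold enrichment of any shared site in myoblast A, at 0.18 with a −log10 p of 17.4, no peak in myoblast B, and 1.46 and 3.07 in myotubes, both with a −log10 p of 400. *Spp1*, which encodes the secreted phosphoprotein osteopontin, had 3.98 and 4.72 in myoblasts and 4.91 in myotube A. *Atf5*, which encodes a bZIP transcription factor, had close log2 fold enrichments in all libraries with a peak, at 2.63 in myoblast A and 2.51 and 2.55 in myotubes, with a −log10 p of 5.64 in myoblast A and of 28.6 and 26.9 in myotubes. These sites were picked after their values were seen.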
